A study of Homo sapiens with 6 samples.

Results

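The genes described here were SRF, the serum response factor, and 9 genes of the actin filament and its contraction, ACTA2, ACTB, TAGLN, MYL9, MYH9, TPM1, TPM2, CNN1 and FLNA. They are 10 of the 58302 gene IDs in each count table, and each matched 1 ID. The 10 were chosen by name and not by a measured value, but with earlier results of these data known. They were measured by RNA sequencing of poly(A) RNA from A375, an established human melanoma cell line, in 3 libraries of cells carrying an empty vector (EV) and 3 of cells overexpressing HMGB2 (OE), a chromatin protein that bends DNA. Per the study's methods the overexpressing cells were a stable line made by lentiviral transduction and antibiotic selection, and its reporting form calls the replicates technical. The tests below therefore measure only the spread between these libraries, and not between independent transductions. The labels give no treatment or time point, and the promoter that drives HMGB2 was not given in the sources used here.

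SRF binds a short element called the CArG box, in which a CC pair and a GG pair flank a run of A and T bases. It works with 2 kinds of partner. The myocardin-related factors MRTFA and MRTFB are held back by free actin monomers and take SRF to genes of the cytoskeleton when actin polymerises, whereas the ternary complex factors ELK1, ELK3 and ELK4 answer to ERK signalling and take it to immediate-early genes. Actomyosin contraction needs actin filaments, myosin II (made of heavy chains such as MYH9 and light chains such as MYL9), tropomyosins that line the filament, and crosslinkers such as filamin A (FLNA). ACTA2, TAGLN and CNN1 are best known as smooth muscle genes that are also switched on in contractile fibroblasts.

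The CArG box was searched by name in the RefSeq promoter windows (GRCh38.p14, 250 bases before to 50 bases after an annotated start). The pattern reads the same on both strands. Of the 7 genes among the 10 that had a window, SRF and FLNA held a perfect box, against 454 of all 35116 windows (1.29%) and 1.6% of all genes with a window. ACTA2, MYH9, TPM1, TPM2 and CNN1 held none in these windows. ACTB, TAGLN and MYL9 had no entry. The 250 bases before the start are shown for SRF and FLNA, with the boxes in capitals, because their windows held a box. SRF lies at chr6:43171019-43171268 (plus strand) and FLNA at chrX:154374635-154374884 (minus strand), each printed 5′ to 3′ on its own strand.
SRF: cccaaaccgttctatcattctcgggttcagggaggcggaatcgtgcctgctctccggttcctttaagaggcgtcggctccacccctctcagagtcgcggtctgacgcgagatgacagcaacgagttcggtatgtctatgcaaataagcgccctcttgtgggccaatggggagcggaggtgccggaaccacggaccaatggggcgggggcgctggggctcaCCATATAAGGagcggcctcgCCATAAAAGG
FLNA: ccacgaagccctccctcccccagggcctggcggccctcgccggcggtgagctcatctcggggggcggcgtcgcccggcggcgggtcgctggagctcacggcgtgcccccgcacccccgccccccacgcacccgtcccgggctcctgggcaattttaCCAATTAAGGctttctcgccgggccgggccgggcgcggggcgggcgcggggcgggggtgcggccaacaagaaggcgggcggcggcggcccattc
The SRF window held 2 boxes, CCATATAAGG from 30 to 21 bases and CCATAAAAGG from 10 to 1 bases before the start. The FLNA window held CCAATTAAGG from 94 to 85 bases before the start. A match is a description of the sequence and not evidence of binding.

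Reads in genes numbered between 45925053 and 56755212 a library. Multimapped reads, which count for no gene, made up between 2.58% and 3.96% of reads in EV libraries and between 3.32% and 10.6% in OE libraries, the highest in OE replicate 3. HMGB2 had normalized counts (counts divided by the size factor of the library) of 7250, 7729 and 7562 in EV replicates 1, 2 and 3 and 15095, 16848 and 14609 in OE replicates 1, 2 and 3, so every OE library was above every EV library. The counts of the vector and of the cells' own gene cannot be told apart. EV replicate 3 was the lowest or highest of its group for 84.1% of the 16692 genes that averaged 10 or more normalized counts. The share was 79.4% for OE replicate 3 within its own group and between 51.0% and 69.6% for the other libraries. EV replicate 3 differed with transcript length. In the fifth of these genes with the longest transcripts its median deviation was -0.12 on the log2 scale, against 0.026 and 0.086 in EV replicates 1 and 2, and among the genes with the shortest transcripts it was 0.11, against -0.025 and -0.069. OE replicate 3 leaned the same way, with -0.048 and 0.078. Values for the 10 genes that move with EV replicate 3 are therefore given with and without it. KRT5, a keratinocyte marker, had 5.05, 11.5 and 279 normalized counts in EV and 250, 200 and 289 in OE replicates 1, 2 and 3, so that here EV replicate 3 lay among the OE libraries.

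Of the 10 genes, FLNA fell, MYL9 rose and 8 did not pass the test when OE was compared with EV (DESeq2, Benjamini-Hochberg adjusted p under 0.05 over all genes). All 10 were among the 18836 genes that received an adjusted p, of which 4.94% were called, 2.29% higher and 2.64% lower. The median log2 fold change (OE minus EV) of the 10 was 0.0088, against 0.0027 over all genes tested, with 5 genes on each side of 0 and values from -0.71 to 0.49. The groups did not overlap for 3 of the 10, FLNA, MYL9 and CNN1, against 22.8% of genes that averaged 10 or more normalized counts.

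**Figure D1:**
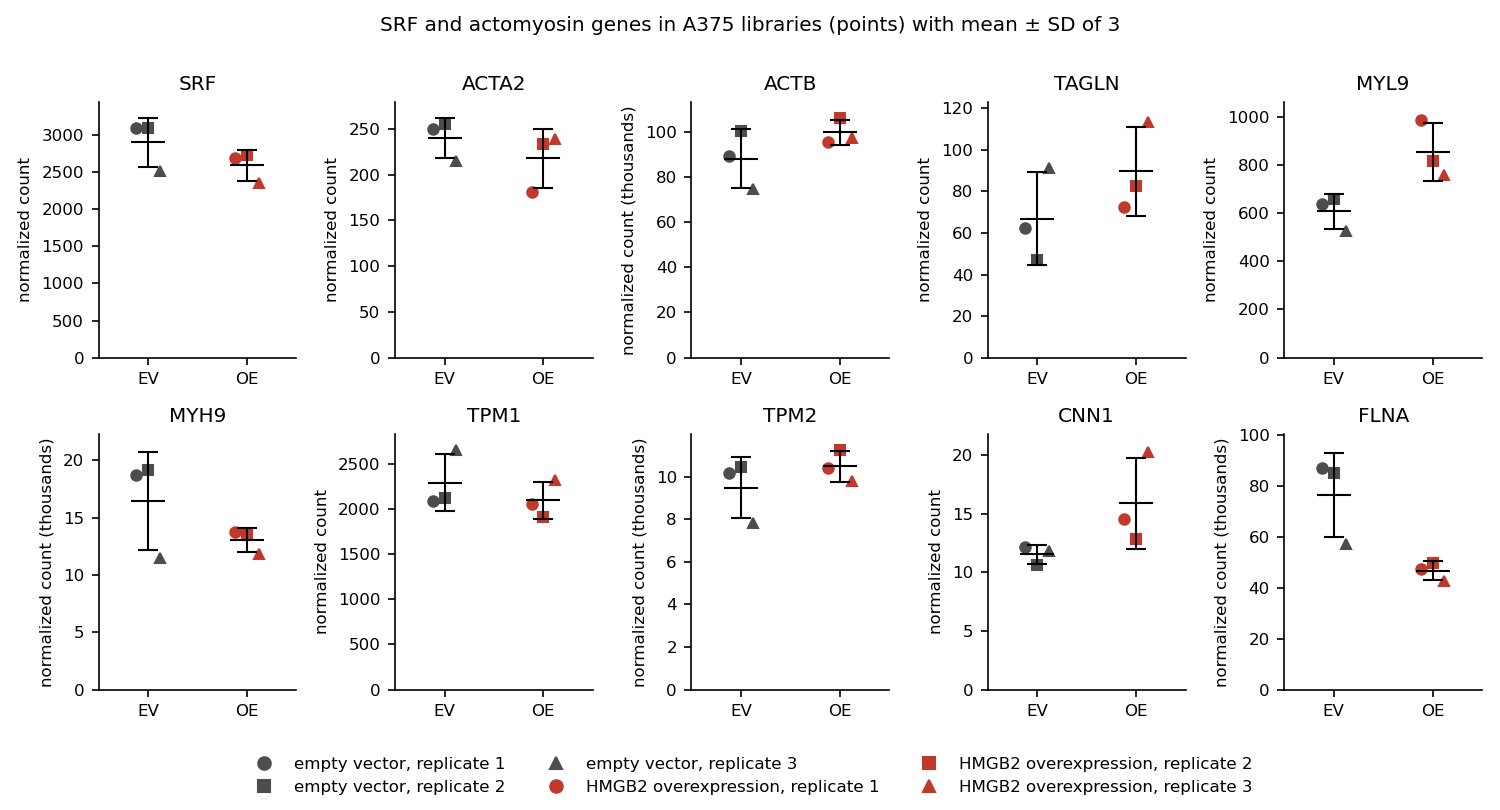
Normalized counts of the 10 genes in each library (points, one shape per replicate number; grey for empty vector, red for HMGB2 overexpression), with the mean and SD of 3 libraries as black bars and every axis starting at 0. FLNA lies between 57432 and 87162 in empty vector and between 42664 and 49974 in overexpression libraries, and for 7 of the 10 genes empty vector replicate 3 (grey triangle) is the lowest of its group.

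The regulator SRF (ENSG00000112658; hg38 chromosome 6, 43171269 to 43181506, plus strand) showed no change past the threshold. Its normalized counts were 3094, 3100 and 2520 in EV and 2694, 2740 and 2353 in OE replicates 1, 2 and 3. EV replicates 1 and 2 were above every OE library and EV replicate 3 was below OE replicates 1 and 2, so the groups overlapped. The log2 fold change was -0.16 (DESeq2 adjusted p = 0.662, SE 0.13, 95% interval -0.41 to 0.09). The fit that left out EV replicate 3 gave -0.25 (DESeq2 adjusted p = 0.0600, SE 0.10).

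FLNA encodes filamin A, which crosslinks actin filaments into networks and ties them to integrins. The gene (ENSG00000196924; hg38 chromosome X, 154348524 to 154374634, minus strand) had normalized counts of 87162, 85173 and 57432 in EV and 47416, 49974 and 42664 in OE replicates 1, 2 and 3. Every OE library was below every EV library, and EV replicate 3 lay nearest to the OE libraries. The mean fell from 76589 ± 16620 to 46685 ± 3709 (SD, n = 3 each), to 61.0% of the EV level, with a fold change of -0.71 on the log2 scale (DESeq2 adjusted p = 0.000894, SE 0.17). The value without EV replicate 3 was -0.88 (DESeq2 adjusted p = 4.27e-20, SE 0.09). In bulk RNA, fewer cells expressing a gene and less RNA per cell cannot be told apart. FLNA kept its call in all 17 alternative fits, with values from -0.88 to -0.61, and edgeR gave the weakest, an adjusted p of 0.0493. Its longest transcript of 8541 bases put it in the fifth of genes with the longest transcripts, in which 1.9% of genes had a lower log2 fold change.

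MYL9 encodes a regulatory light chain of myosin II, whose phosphorylation switches contraction on. The gene (ENSG00000101335; hg38 chromosome 20, 36541497 to 36551447, plus strand) had normalized counts of 636, 660 and 525 in EV and 986, 815 and 756 in OE replicates 1, 2 and 3. All OE libraries were above all EV libraries, with OE replicate 1 the highest. The mean rose by 0.49 on the log2 scale, from 607 ± 72.2 to 852 ± 120 (SD, n = 3 each), with a DESeq2 adjusted p of 0.0373 and an SE of 0.16. Without EV replicate 3, the lowest EV library for MYL9, the value was 0.40 (DESeq2 adjusted p = 0.0293, SE 0.14). The direction held in all 17 alternative fits, with values from 0.37 to 0.57, but the call was lost in 7 of them. These were edgeR (adjusted p = 0.108), DESeq2 without its independent filter (adjusted p = 0.0648), and leaving out EV replicate 1 (adjusted p = 0.175), EV replicate 2 (0.0817), OE replicate 1 (0.481), OE replicate 2 (0.158) or OE replicate 3 (0.0561).

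MYH9, the heavy chain of non-muscle myosin IIA and the motor with which MYL9-type light chains assemble, did not pass the test over all 6 libraries. The gene (ENSG00000100345; hg38 chromosome 22, 36281280 to 36388010, minus strand) had normalized counts of 18735, 19174 and 11525 in EV and 13745, 13598 and 11844 in OE replicates 1, 2 and 3. EV replicates 1 and 2 were above all OE libraries, whereas EV replicate 3 was the lowest of the 6. The log2 fold change was -0.34 (DESeq2 adjusted p = 0.418, SE 0.19, 95% interval -0.70 to 0.03). Without EV replicate 3 MYH9 was lower with overexpression, by -0.54 (DESeq2 adjusted p = 3.5e-07, SE 0.09), in a fit that called 17.8% of the genes it tested. With a term for the libraries numbered 3, which called 17.3%, it was lower by -0.30 (DESeq2 adjusted p = 0.00477, SE 0.09). When the fit corrected for transcript length and GC content it was not called (log2 fold change -0.28, DESeq2 adjusted p = 0.0748). MYH9 was called lower when that correction was joined to a replicate block (-0.28, DESeq2 adjusted p = 0.00239) or made without EV replicate 3 (-0.37, DESeq2 adjusted p = 3.45e-07). In replicates 1 and 2 alone it was called lower, at -0.47 (DESeq2 adjusted p = 2.0e-14). Each of these fits also called more of all genes, higher and lower, than the fit over all 6 libraries. MYH9 was below 0 in all 17 alternative fits.

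The actins did not pass the test. ACTB, the cytoplasmic beta-actin (ENSG00000075624; hg38 chromosome 7, 5526409 to 5563902, minus strand), had normalized counts of 89532, 100547 and 74719 in EV and 95795, 106322 and 97478 in OE replicates 1, 2 and 3. The groups overlapped, EV replicate 3 was the lowest of the 6, and the log2 fold change was 0.18 (DESeq2 adjusted p = 0.618, SE 0.13), or 0.072 (DESeq2 adjusted p = 0.648, SE 0.09) without that library. Of the 50-base words in ACTB transcripts 3.79% also occur in other genes, mostly the pseudogene ACTBP2 and the POTE genes. ACTA2, the alpha-actin of smooth muscle (ENSG00000107796; hg38 chromosome 10, 88935074 to 88991339, minus strand), had 250, 255 and 215 in EV and 181, 233 and 239 in OE, again with overlap. Its log2 fold change was -0.14 (DESeq2 adjusted p = 0.834, SE 0.18), or -0.22 (DESeq2 adjusted p = 0.494, SE 0.19) without EV replicate 3 and -0.024 (DESeq2 adjusted p = 0.996) without OE replicate 1.

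ACTA2 overlaps the antisense ACTA2-AS1 and FAS on the opposite strand, and the count column used here kept 31.1% of the reads that the sum of the stranded columns gives to it. Since the libraries carry no strand information, reads from ACTA2 and from these partners cannot be told apart in that sum, in which ACTA2 had a fold change of -0.12 on the log2 scale (DESeq2 adjusted p = 0.817, SE 0.14). The same limit held for TAGLN, which overlaps PCSK7 and kept 63.4%, and for TPM1, which overlaps TPM1-AS and kept 64.1%. Each of the other 7 genes kept over 99% of its stranded sum.

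The tropomyosins, which wind along the actin filament and set which proteins may bind it, did not pass the test and lay on opposite sides of 0. TPM1 (ENSG00000140416; hg38 chromosome 15, 63042620 to 63071915, plus strand) had normalized counts of 2092, 2122 and 2656 in EV and 2054, 1915 and 2316 in OE replicates 1, 2 and 3. Both replicates numbered 3 were the highest of their groups, and the log2 fold change was -0.13 (DESeq2 adjusted p = 0.789, SE 0.14). TPM2 (ENSG00000198467; hg38 chromosome 9, 35681992 to 35690056, minus strand) had 10147, 10441 and 7833 in EV and 10410, 11253 and 9787 in OE. There both replicates numbered 3 were the lowest of their groups, and the log2 fold change was 0.15 (DESeq2 adjusted p = 0.742, SE 0.14). Without EV replicate 3 the values were -0.0083 (SE 0.11) for TPM1 and 0.027 (SE 0.09) for TPM2.

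TAGLN and CNN1, which encode the actin-binding proteins transgelin and calponin of smooth muscle, were the least abundant of the 10. TAGLN (ENSG00000149591; hg38 chromosome 11, 117199370 to 117207464, plus strand) had normalized counts of 62.6, 46.9 and 91.2 in EV and 72.7, 82.7 and 114 in OE replicates 1, 2 and 3. The groups overlapped and the replicates numbered 3 were again the highest, with a fold change of 0.42 on the log2 scale (DESeq2 adjusted p = 0.626, SE 0.32), or 0.71 (DESeq2 adjusted p = 0.121, SE 0.33) without EV replicate 3. CNN1 (ENSG00000130176; hg38 chromosome 19, 11538767 to 11550323, plus strand) had 12.1, 10.6 and 11.8 in EV and 14.5, 12.8 and 20.3 in OE. The OE libraries were all above the EV libraries, the highest EV and lowest OE values being 12.1 and 12.8, and the log2 fold change of 0.46 (DESeq2 adjusted p = 0.816, SE 0.54) had a 95% interval from -0.61 to 1.52. At this depth a change of that size in CNN1 could not be told from none.

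**Figure D2:**
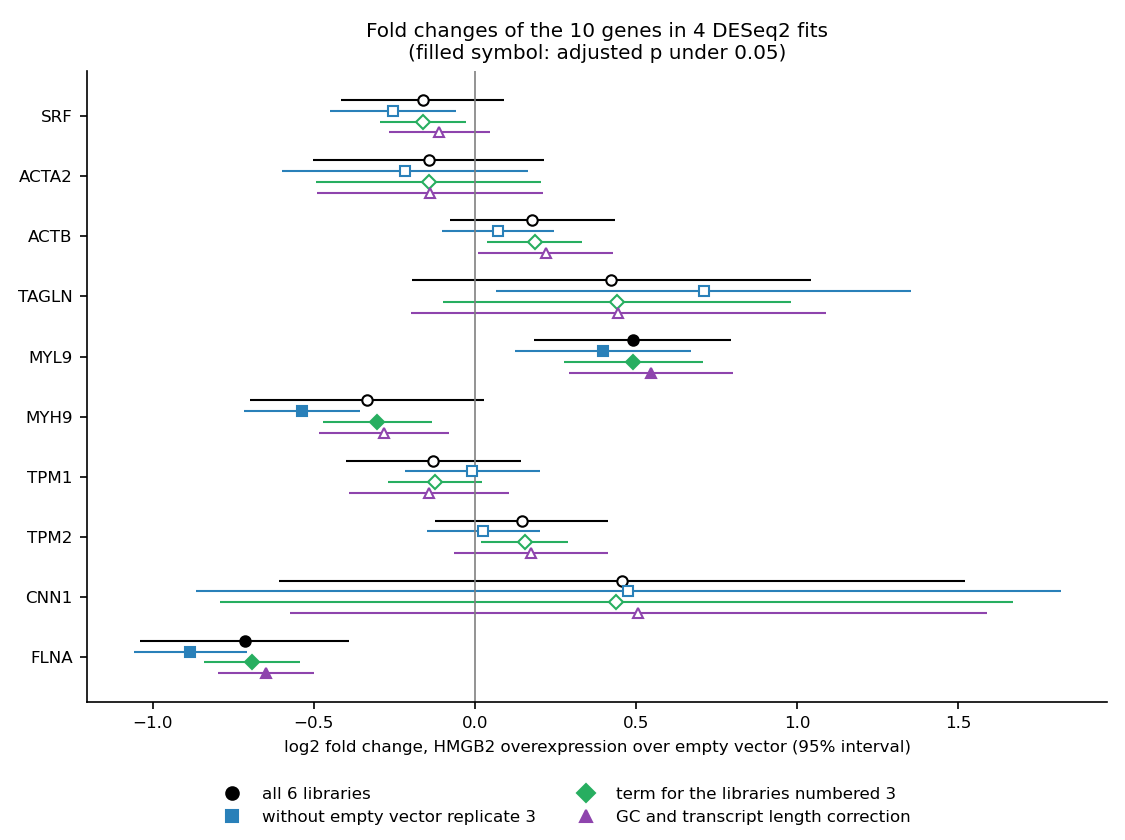
Log2 fold changes (overexpression over empty vector, with 95% intervals from the DESeq2 standard error) of the 10 genes in 4 fits: all 6 libraries, without empty vector replicate 3, with a term for the libraries numbered 3, and corrected for transcript length and GC content. Filled symbols have an adjusted p under 0.05: FLNA and MYL9 are filled in all 4, and MYH9 in the fits without empty vector replicate 3 and with the term.

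Levels per length were compared as TPM (reads per base of merged exon, scaled to the same total in each library), given as the mean and SD of all 6 libraries. ACTB was the highest of the 10 at 1539 ± 212, followed by FLNA at 411 ± 143 and TPM2 at 226 ± 32.5. MYH9 at 62.8 ± 16.4 and SRF at 46.9 ± 6.86 came next, and then MYL9 at 18.7 ± 4.15 and TPM1 at 10.7 ± 0.977. ACTA2 at 2.93 ± 0.416, TAGLN at 0.854 ± 0.226 and CNN1 at 0.345 ± 0.0762 were lowest. In the sum of the stranded columns, which includes reads of opposite-strand partners, ACTA2 had 7.01 ± 0.893 TPM, against 12.5 ± 1.33 for TPM1 and 14.0 ± 3.07 for MYL9. The ranges over 6 libraries overlapped for 1 pair of neighbours in this order, MYH9 and SRF, and even there MYH9 was higher within each of the 6 libraries. With the longest transcript in place of the merged exons TPM1, at 27.9, passed MYL9, at 13.2. The counts of TPM1, TAGLN and ACTA2 exclude the reads they share with overlapping genes.

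The levels of close relatives set these values in context. ACTG1, the cytoplasmic gamma-actin, reached 3272 ± 88.1 TPM, above ACTB in this measure. Among light chains MYL12B, at 489 ± 25.6 TPM, and MYL12A, at 158 ± 8.35 TPM, were above MYL9, and the heavy chains MYH10 and MYH14, at 11.8 ± 3.14 and 11.9 ± 3.51 TPM, were below MYH9. TPM3, at 217 ± 9.61 TPM, was close to TPM2. CNN3 and TAGLN2, relatives of CNN1 and TAGLN that are found outside muscle, reached 227 ± 25.9 and 1262 ± 87.7 TPM.

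**Figure D3:**
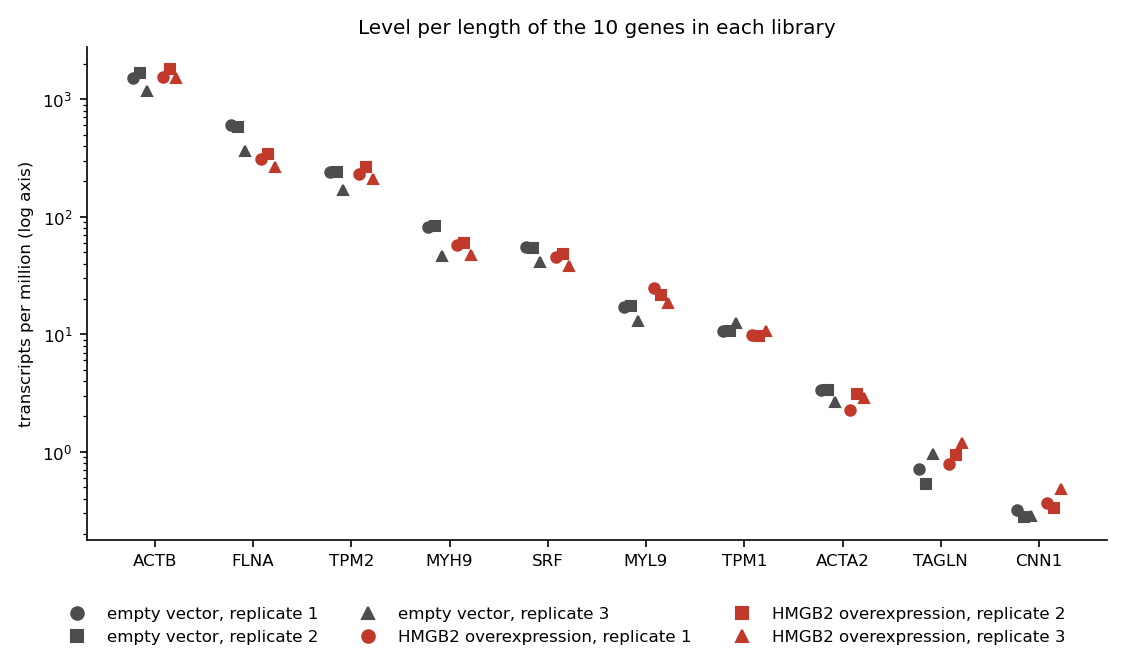
TPM over merged exons (log axis) for the 10 genes in each library, ordered by their mean over all 6 libraries, with grey for empty vector, red for HMGB2 overexpression and one shape per replicate number. The levels span from 0.345 for CNN1 to 1539 for ACTB, and FLNA is higher in each empty vector library than in every overexpression library.

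A wider set of 117 genes in 7 lists was read from the same fit, covering SRF cofactors, 2 classes of SRF targets and the machinery of myosin and actin. Of the 114 with an adjusted p, 1 was called higher and 5 lower, or 5.26%, next to 4.94% of all genes. These totals include 1 list that is not described further. The median log2 fold change of the 114 was 0.014. The fit without EV replicate 3 called 13 higher and 26 lower of 111 tested, or 35.1%, next to 17.8% of all genes in that fit.

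The SRF cofactors included 1 called gene of 8 (12.5%, next to 4.94% of all genes). This was FHL2, a LIM protein that binds SRF and is itself a target of it. FHL2 had normalized counts of 4163, 4021 and 4161 in EV and 2779, 2551 and 2586 in OE replicates 1, 2 and 3, with no overlap and little spread within a group. It fell to 64.1% of the EV level, with a fold change of -0.64 on the log2 scale (DESeq2 adjusted p = 2.46e-09, SE 0.09), and kept its call in all 17 alternative fits. ELK1, the most abundant of the list, had a value of -0.16 (DESeq2 adjusted p = 0.441, SE 0.09). The coactivators MRTFA and MRTFB had -0.070 (DESeq2 adjusted p = 0.941, SE 0.20) and 0.18 (DESeq2 adjusted p = 0.778, SE 0.19), and MYOCD, the muscle member of that family, had a normalized count between 0.886 and 16.9.

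Among the cytoskeletal targets of SRF and MRTF, 1 of 26 genes tested was called (3.85%, next to 4.94% of all genes), and it was lower. PDLIM7, a PDZ and LIM protein of actin bundles, had normalized counts of 6084, 5287 and 4100 in EV and 3706, 3954 and 3406 in OE replicates 1, 2 and 3. Its log2 fold change was -0.48 (DESeq2 adjusted p = 0.0402, SE 0.15), and it was named after its values were seen. The groups did not overlap, but the call was lost in 7 of 17 alternative fits, with edgeR (adjusted p = 0.121), with no independent filter, and when any 1 library other than EV replicate 3 was left out (DESeq2 adjusted p from 0.0934 to 0.452). The list's median was -0.035, with 18 genes below 0 and 8 above, next to 0.0027, 9336 and 9500 over all genes tested. Its most abundant members, ACTG1 and TAGLN2, had values of -0.00033 (DESeq2 adjusted p = 0.999, SE 0.09) and 0.10 (DESeq2 adjusted p = 0.830, SE 0.12), the latter 0.21 (DESeq2 adjusted p = 0.0586) without EV replicate 3. Of 25 tested without EV replicate 3, 3 were called higher and 7 lower, or 40.0%, next to 17.8% of all genes in that fit.

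Of the 11 immediate-early targets that SRF serves with the ternary complex factors, 2 were called (18.2%, next to 4.94% of all genes), both lower. Of the 11, 10 had a log2 fold change below 0, with a median of -0.47 against 0.0027 over all genes. MCL1, an anti-apoptotic gene, had normalized counts of 60206, 58938 and 58629 in EV and 44080, 42312 and 40786 in OE replicates 1, 2 and 3. The groups were far apart relative to their spread, and MCL1 fell to 71.5% of the EV level (log2 fold change -0.48, SE 0.09, DESeq2 adjusted p = 2.15e-06). FOSB, a FOS family factor, had 1019, 1092 and 677 in EV and 717, 602 and 466 in OE. EV replicate 3 lay below OE replicate 1, and the log2 fold change of -0.64 (DESeq2 adjusted p = 0.0496, SE 0.21) lost its call in 7 of 17 alternative fits. These were edgeR (adjusted p = 0.153), TMM factors, no independent filter, and leaving out EV replicate 1, EV replicate 2, OE replicate 2 or OE replicate 3 (DESeq2 adjusted p from 0.167 to 0.362). EV replicate 3 was the lowest EV library for every gene of this list but EGR4, and OE replicate 3 was the lowest OE library for every gene of it. Without EV replicate 3, 8 of 10 genes tested were called lower (80.0%), next to 17.8% of all genes called in either direction in that fit. The median of the list was then -0.53. That fit kept OE replicate 3, so it left out the low library of 1 group only. The part of this in the 80.0% and the median was not tested. FOS itself had a value of 0.0076 (DESeq2 adjusted p = 0.997, SE 0.45), with 2056, 2141 and 965 in EV and 1640, 2368 and 1182 in OE, so the replicates numbered 3 were low in both groups.

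**Figure D4:**
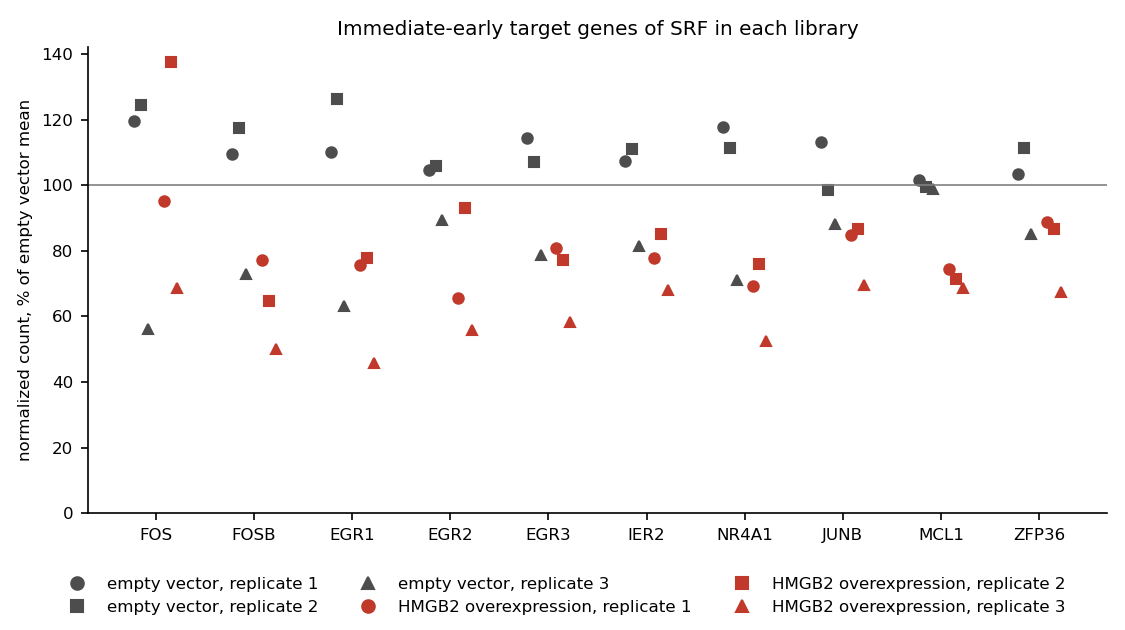
Normalized counts, as a percentage of the empty vector mean of each gene, for the 10 immediate-early target genes that averaged 10 or more normalized counts, in each library (grey for empty vector, red for overexpression, one shape per replicate number). Overexpression libraries lie below the grey line at 100% except FOS in overexpression replicate 2, and MCL1 falls to 71.5% of the empty vector mean with little spread in either group.

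The partners of MYL9 and MYH9 in non-muscle myosin II gave no call in the fit of the group alone over all 6 libraries. With DESeq2 0 of 5 were called, next to 4.94% of all genes, and 0 with edgeR. An unadjusted DESeq2 p under 0.05 was reached by 2 of the 5, next to 2692 of 18836 genes tested. MYL12B, a regulatory light chain like MYL9, had a fold change of 0.11 on the log2 scale (DESeq2 adjusted p = 0.793, SE 0.12). MYL6, the essential light chain, had normalized counts of 5865, 5278 and 7212 in EV and 7185, 7418 and 8695 in OE replicates 1, 2 and 3. EV replicate 3 reached into the OE range, and the log2 fold change was 0.34 (DESeq2 adjusted p = 0.192, SE 0.15). Without EV replicate 3 MYL6 was called higher, at 0.48 (DESeq2 adjusted p = 0.000106, SE 0.10), and MYH14 was called lower, at -0.66 (DESeq2 adjusted p = 1.56e-07, SE 0.11). These were 2 of 5 (40.0%), next to 17.8% of all genes in that fit. MYL6 was also called higher over all 6 libraries with a replicate block (DESeq2 adjusted p = 0.000164), with a term for the libraries numbered 3 (DESeq2 adjusted p = 4.10e-06) and when GC content and transcript length were corrected for (DESeq2 adjusted p = 0.0356). The fit with the term called 17.3% of all genes.

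Of 15 genes of actin filament binding and crosslinking, the class to which FLNA belongs, 1 was called (6.67%, next to 4.94% of all genes). This was PLS3 (plastin 3, an actin-bundling protein), which was higher. Its normalized counts were 3064, 3330 and 3784 in EV and 4420, 4185 and 4802 in OE replicates 1, 2 and 3, with no overlap. The call (log2 fold change 0.40, DESeq2 adjusted p = 0.0256, SE 0.12) was lost in 6 of 17 alternative fits, with edgeR (adjusted p = 0.0942) and when any 1 library other than EV replicate 3 was left out (DESeq2 adjusted p from 0.107 to 0.379), and PLS3 was named after its values were seen. FLNC, a filamin of low level that was counted with the SRF and MRTF targets, had 0.38 (DESeq2 adjusted p = 0.392, SE 0.21). ACTN4 and TPM3, the most abundant of the list, had values of -0.13 (DESeq2 adjusted p = 0.882, SE 0.21) and 0.040 (DESeq2 adjusted p = 0.924, SE 0.09). Leaving out EV replicate 3 gave -0.36 for ACTN4, which was then called lower (DESeq2 adjusted p = 0.0120, SE 0.11). That fit gave 2 calls in each direction among the 15, or 26.7%, next to 17.8% of all genes.

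Genes of actin turnover and branching, which cut, cap, feed or branch filaments, gave no call over all 6 libraries. With DESeq2 0 of 26 were called, next to 4.94% of all genes, and 0 with edgeR. An unadjusted DESeq2 p under 0.05 was reached by 0 of the 26, next to 2692 of 18836 genes tested. Their values lay in a narrow band from -0.16 to 0.34. Of the 26, 23 were above 0, next to 9500 of the 18836, and the median was 0.11, next to 0.0027. The most abundant were GSN, the severing protein gelsolin, at 0.11 (DESeq2 adjusted p = 0.820, SE 0.13) and ACTR2, a subunit of the ARP2/3 complex, at 0.13 (DESeq2 adjusted p = 0.603, SE 0.09). In the fit without EV replicate 3, 6 were called higher and 1 lower, or 26.9%, next to 17.8% of all genes.

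**Figure D5:**
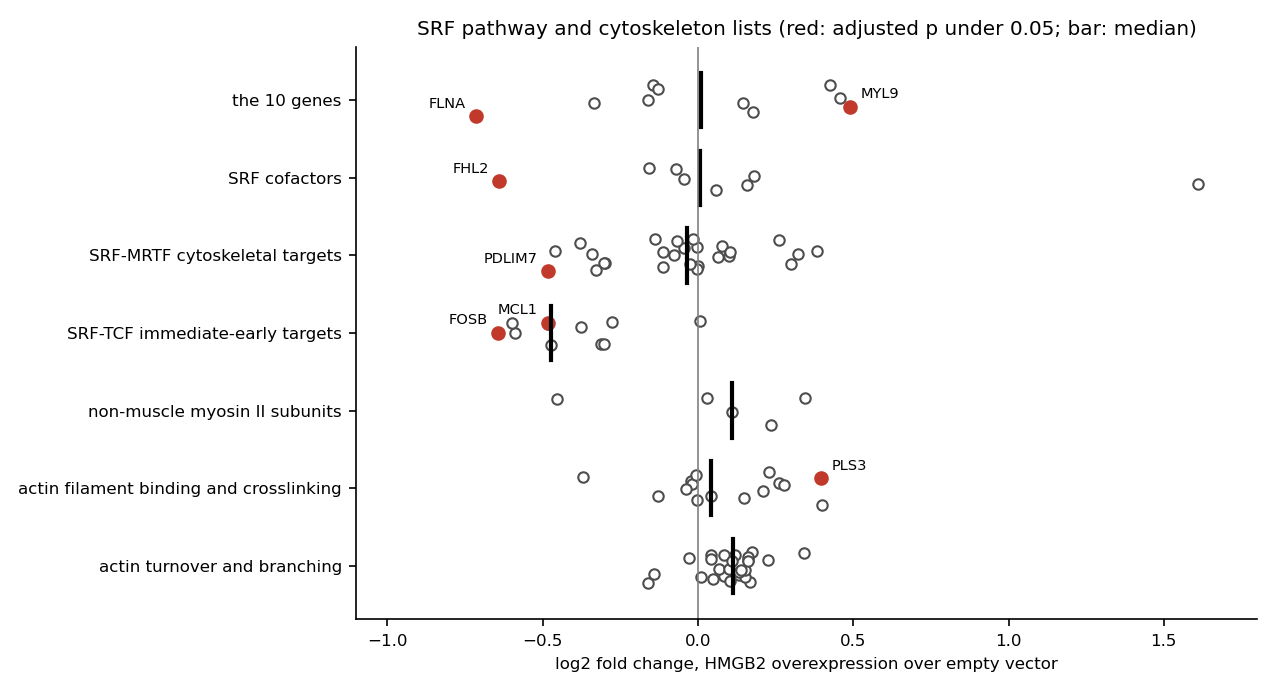
Log2 fold change (overexpression over empty vector, all 6 libraries) of each gene with an adjusted p, for the 10 genes and 6 further lists. Each circle is a gene, red where the adjusted p is under 0.05, and the black bar is the median of the list; the immediate-early targets have the lowest median, -0.47, and the point at 1.61 is MYOCD, which is near the floor of detection.

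Markers of other cell types were checked because ACTA2, TAGLN and CNN1 also mark smooth muscle and contractile fibroblasts. Of 7 smooth muscle markers, DES lay between 0 and 4.92 normalized counts, MYH11 between 3.38 and 10.1 and MYOCD between 0.886 and 16.9, whereas SYNM and SMTN were expressed, and the summed level of the list ranged from 2507 to 4007 in EV and from 2738 to 3395 in OE. The 8 fibroblast markers were all detected, with COL1A1 the highest, and summed to between 3931 and 5933 in EV and between 5486 and 7143 in OE. The summed level of 5 endothelial markers was between 228 and 234 in EV and between 158 and 183 in OE. These markers did not move together. KDR was called lower (log2 fold change -1.11, DESeq2 adjusted p = 0.00115). VWF (-0.40) and TEK (-0.78) were below 0 and PECAM1 (0.48) and CDH5 (1.83) above it, none of them called. The summed level of 5 keratinocyte markers was between 4596 and 4961 in EV and between 4492 and 5083 in OE. PTPRC and KRT1 had no count in any library, and the 5 immune markers, nearly all of whose counts were LYZ, summed to between 500 and 523 in EV and between 528 and 705 in OE. Among 10 melanocyte lineage markers MITF and S100B were expressed in every library, MLANA was between 3.38 and 10.8 and TYR had at most 0.985. SOX10 had no count in the column used, though between 28863 and 56464 raw reads in the sum of the stranded columns. In that sum MYH11 had between 335 and 758 raw reads, CD68 between 191 and 264, PMEL between 1529 and 2017 and S100A1 between 6110 and 9590. Low values of these genes in the column used therefore do not show that they were absent. The part of these markers in the results above was not tested.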

How the data were processed

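RNA of 6 A375 libraries was sequenced, 3 per group, grouped by the genotype in the labels. Per the submitters' processing notes, the authors used bcl2fastq 2.20, FastQC, Trimmomatic and STAR with the build GRCh38 (hg38), and deposited raw read counts per gene. The STAR version and annotation release were not given in the sources used here. Column 2, which takes reads of either strand and sets aside those shared by overlapping genes, was used. Ambiguous reads made up 10.7% to 11.4% and reads outside genes 1.13% to 1.29% of all reads.

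Of the 58302 IDs, 57532 matched GENCODE 44, and the others held 0.0575% of counts. The test was DESeq2 1.42.0 (R 4.3.3, default Wald test on the group, Benjamini-Hochberg adjusted p under 0.05), after the study's methods, and 18836 genes received an adjusted p. Log2 fold changes are unshrunken. Intervals cover 95% and rest on the model's standard error. The scripts were tested on simulated counts. Replicates of a group differed by more than sampling noise, with a chi-square of 13.5 to 81.5 per degree of freedom. An exact two-sided permutation test of depth and of the multimapped share gave p = 0.8 and 0.2. With 3 libraries against 3 it cannot go below 0.1, so it could not have passed 0.05.

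The 10 genes, the 7 lists and the markers were chosen with earlier results of these data known. Named by rule were HMGB2, the 10 genes and, of each list, up to 3 called genes of smallest adjusted p that averaged 50 or more normalized counts, or, where fewer than 2 were called, the 2 most abundant. Other genes named, such as relatives of the 10, were chosen after their values were seen. Levels per length divide counts by merged exon length. Alternatives were edgeR 4.0.16 with TMM scaling, DESeq2 with TMM factors, a minimum of 10 counts in 3 libraries, DESeq2 without its independent filter, the stranded columns summed, a replicate block, a term for the libraries numbered 3, replicates 1 and 2 alone and leaving out each library. Added after seeing the data were corrections for GC content and transcript length. 1 list and some single genes are not reported here.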

Additional observations from a re-analysis of the deposited data

How the results depend on the processing

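FLNA, FHL2, MCL1 and HMGB2 kept their calls in all 17 alternatives, 14 planned and 3 added after seeing the data, and no gene among the 10 changed sign. MYL9 lost its call in 7 and MYH9 gained one in 6. Of the 10 genes, 0 were called higher with edgeR and with no independent filter, and 2 higher (ACTB beside MYL9) with GC and length corrected and the replicate block. Called lower were 2, FLNA and MYH9, with the term for libraries numbered 3, replicates 1 and 2 alone, and GC and length corrected without EV replicate 3 or with the block. Leaving out 1 library gave 0 to 1 higher and 1 to 2 lower, with 0 higher unless EV replicate 3 was the one left out.

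Of the pathway genes, called higher and lower were 0 and 3 with edgeR, 1 and 3 with no independent filter, 15 and 20 with the term for libraries numbered 3, 15 and 24 in replicates 1 and 2 alone, 3 and 10 with GC and length corrected, 12 and 18 with the block added, 16 and 23 with EV replicate 3 left out instead, and 0 to 13 and 3 to 26 when 1 library was left out, the highest without EV replicate 3. Over all genes the counts were 215 and 255 with edgeR, 1374 and 1359, 1203 and 1418 with the term and with replicates 1 and 2, 1013 and 1094 and 1506 and 1533 with GC and length corrected plus the block or without EV replicate 3, and 155 to 1334 and 208 to 1520 with 1 library left out. The cause of these shifts was not tested.

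Samples sharing a replicate number had deviations from their group means that correlated at 0.0912, 0.129 and 0.333 for numbers 1, 2 and 3. EV replicates 2 and 3 correlated best with the OE replicate of their own number, and EV replicate 1 with OE replicate 2 (0.201). Deviations within a group depend on each other, so these correlations cannot tell whether the number paired the samples. With a replicate block, 2 of the 10 genes were called lower, 9 and 17 pathway genes higher and lower, and 886 and 940 of all genes.

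Of the pathway genes that changed sign, ACTG1 was -0.00033 and turned to 0.0019 with the count minimum, 0.00076 with the block, 0.00065 with the term, 0.028 in replicates 1 and 2, 0.030 with GC and length corrected, 0.032 with GC, length and the block, 0.083 with GC and length corrected without EV replicate 3, and lay between -0.033 and 0.041 when 1 library was left out. TPM3 turned to -0.00021 with GC, length and block. With 1 library left out TPM3 ranged from -0.0076 to 0.084 and ACTN4, -0.13 over all 6 libraries, from -0.36 (called, without EV replicate 3) to 0.016 (not called, without EV replicate 2). Of the gene values under these alternatives, 366 kept their direction and side of the threshold, 27 lost a call, 19 gained one and 13 changed sign.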
